A study of Schmidtea mediterranea with 6 samples.

Results

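The transcripts described here are the 13 that were clearly higher after cct3A(RNAi) in regenerating planarians, out of 26558 transcripts in the table. They were selected on the measured values themselves, by a rule with 4 limits. The mean over the 6 libraries had to be at least 5 normalised TPM, the gfp(RNAi) mean had to be under 1000, the lowest cct3A(RNAi) value had to exceed the highest gfp(RNAi) value, and the log2 change had to be at least 0.5. Normalised TPM is the abundance of a transcript, corrected for its length and relative to the whole library, after a further scaling of each library. The log2 change is log2(cct3A(RNAi) mean + 0.5) minus log2(gfp(RNAi) mean + 0.5), which understates the change of low transcripts. The rule also leaves out 5 named transcripts, of which 3 met all limits, so that 16 transcripts met the limits in all. Since the difference between the groups chose these transcripts, their levels and differences are given as a description and no p-value is attached to any of them.

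RNA was taken from whole regenerating trunks of the asexual strain of Schmidtea mediterranea, a flatworm, at 72 hours of regeneration (72hR). The cct3A(RNAi) planarians had been injected with double-stranded RNA against cct3A, and the gfp(RNAi) planarians, the controls, with double-stranded RNA against gfp, a sequence absent from the planarian genome. Each group had 3 libraries, and 5 trunks were pooled for each library. Animals of both groups were starved according to the study, although the titles of the samples are silent on feeding. RNAi by injection acts throughout the animal, so a change cannot be assigned to a tissue, and in whole-trunk RNA fewer cells of a type and less RNA per cell cannot be told apart. The titles number the replicates without saying whether they came from separate cultures, so every SD, SE and p-value reflects only the spread between these pools of trunks, which may be technical. Markers of stem cells and other cell types could not be checked, because the sources used here do not link such markers to entries of the table.

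cct3A encodes a subunit of TRiC (also called CCT), the ring-shaped chaperonin of the cytosol that encloses actin, tubulin and other proteins while they fold. When proteins fail to fold, cells in general raise chaperones, in the cytosol through the heat shock response and in the endoplasmic reticulum (ER) through the unfolded protein response. Planarians rebuild lost parts from adult stem cells, their only dividing cells, and new tissue has to be made and its proteins folded within days.

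Summed over all transcripts, the values of a library came to 1005000 to 1048400 for cct3A(RNAi) and 959960 to 999940 for gfp(RNAi). The depth of each single library cannot be read from normalised TPM. cct3A itself (dresden_comp435_c0_seq1) was at 13.3, 13.4 and 14.0 normalised TPM in the cct3A(RNAi) libraries and at 386, 387 and 403 in the gfp(RNAi) libraries, which matches the labels. It fell by 4.80 on the log2 scale (limma, adjusted p = 9.33e-10, lower in 3 of 3 libraries; 7.92e-11 to 3.82e-06 over the 16 alternative settings). A transcript that the study used as its reference for quantitative PCR, dresden_comp5685_c0_seq1, was at 30.5 ± 0.931 normalised TPM in cct3A(RNAi) planarians and at 31.1 ± 0.964 in gfp(RNAi) planarians (SD, n = 3 each), and its groups overlapped.

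Large increases without overlap were few. Of the 11904 transcripts whose mean was 5 normalised TPM or more, 2464 (20.7%) were higher in all cct3A(RNAi) libraries than in any gfp(RNAi) library, and 2011 (16.9%) were lower in all of them. Among the 2464, the log2 change was under 0.25 for 2249 and between 0.25 and 0.5 for 198, and only 17 reached 0.5. One of the 17, dresden_comp10_c0_seq1, exceeded the limit on the gfp(RNAi) mean, with 2010.9 ± 545 normalised TPM in cct3A(RNAi) planarians and 1218 ± 72.2 in gfp(RNAi) planarians (SD, n = 3 each). With the same limits in the other direction, 132 transcripts were lower by at least 0.5, cct3A among them, against 16 that were higher. Rescaling all libraries to an equal sum gave 9 higher and 195 lower, with 674 higher and 3734 lower without overlap at any size of change. The counts past 0.5 were 15 to 27 higher and 91 to 207 lower when 1 library was left out. The median log2 change was 0.61 over the 13 transcripts, by construction above the limit, and 0.016 over the 11904.

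**Figure D1:**
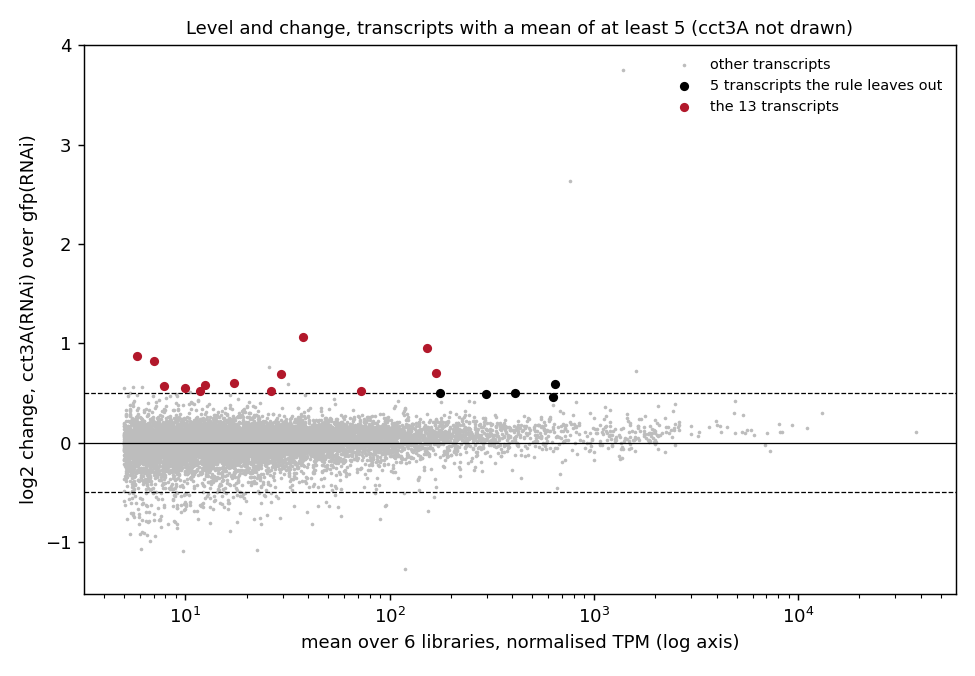
Log2 change, cct3A(RNAi) over gfp(RNAi), against the mean over the 6 libraries in normalised TPM on a log axis, for transcripts whose mean was 5 or more, without cct3A. The 13 transcripts are the large red points, the 5 that the rule leaves out are black, and dashed lines mark a log2 change of 0.5 in either direction. The 13 points lie above the upper dashed line at mean levels between 5.80 and 169, and the 2 grey points far above them belong to transcripts whose groups overlapped.

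The 13 transcripts spanned the range of moderate levels. Their mean over the 6 libraries ran from 5.80 to 169 normalised TPM with a median of 17.4, against a median of 20.6 for the 11904 transcripts. A mean under 10 was found for 3 of them, 10 to under 50 for 7 and at least 50 for 3. Their values added up to 746, 673 and 694 normalised TPM in the cct3A(RNAi) libraries, or 0.0727%, 0.0670% and 0.0662% of each library. In the gfp(RNAi) libraries the sums were 404, 407 and 437, or 0.0420%, 0.0424% and 0.0437%. The most abundant members, comp2145 and comp1039, made up 57.6% to 59.6% of these sums in cct3A(RNAi) libraries and 55.1% to 57.0% in gfp(RNAi) libraries. No member was listed at 0 in any library. None came from the same assembly component as another listed transcript, which is the usual case, since only 1.19% of all listed transcripts did.

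**Figure D2:**
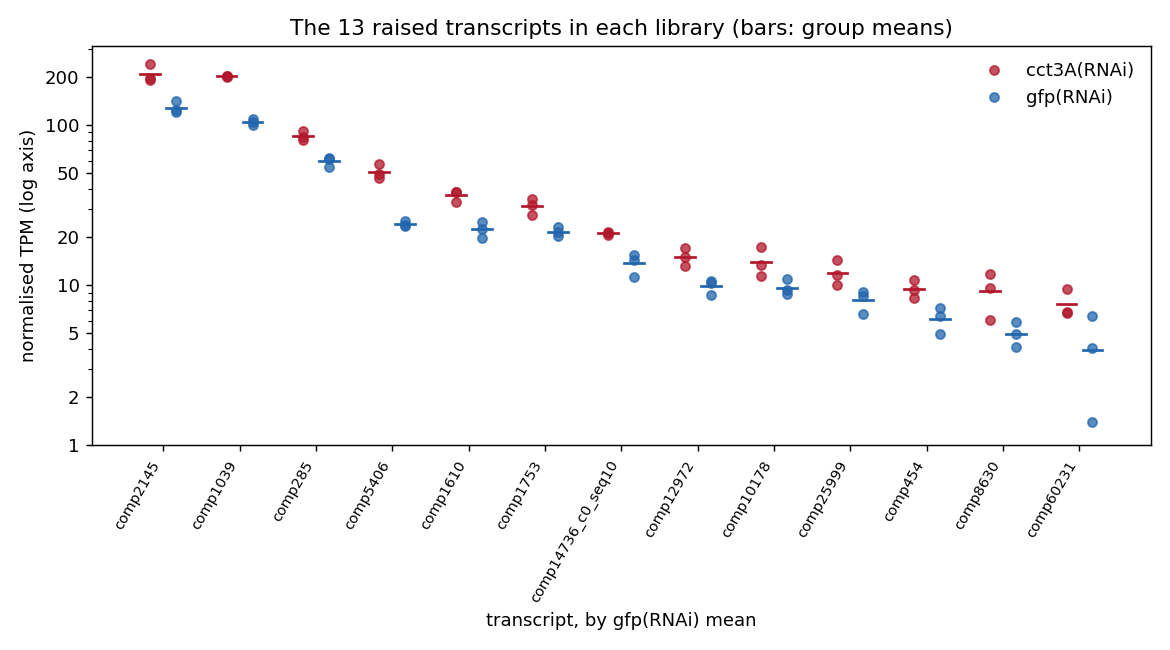
Normalised TPM of the 13 transcripts in each library on a log axis, ordered by gfp(RNAi) mean. Red points are the 3 cct3A(RNAi) libraries and blue points the 3 gfp(RNAi) libraries, and bars are group means. The distance between the groups is widest for comp1039 and comp5406 and narrowest for comp8630, comp60231 and comp10178, whose lowest cct3A(RNAi) value lay just above the highest gfp(RNAi) value.

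The largest difference belonged to dresden_comp5406_c0_seq1, the only one of the 13 that a source used here annotates. The gene tables of the study place it under 2 terms of the Gene Ontology (GO), response to endoplasmic reticulum stress and response to topologically incorrect protein, and give it no gene symbol. comp5406 was at 46.4, 49.3 and 57.5 normalised TPM in the cct3A(RNAi) libraries, against 23.6, 23.6 and 25.3 in the gfp(RNAi) libraries. The control libraries were close together, the cct3A(RNAi) libraries less so, and the lowest of these was still 1.84 times the highest control. Its log2 change was 1.06 (SE 0.096, taken from the spread of the log2 values, n = 3 each), and it was 0.97 to 1.13 when 1 library was left out in turn. For every member the change compares group means, whereas the SE belongs to the mean of log2 values. The SE is therefore only approximate, above all where libraries of a group differ widely. The change and its SE also come from the values that the rule used. Selection tends to overstate such changes, so the SE describes spread and does not measure how far a change lies from 0.

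The 2 terms list 31 distinct transcripts, 7 of them under both, in tables made from genes that responded to starvation in sorted stem cells, which are other libraries than those used here. Without comp5406, 29 of them reached the mean of 1 normalised TPM needed for testing, and limma called 3 higher and 5 lower in cct3A(RNAi) planarians. Over all 18062 tested transcripts, 321 (1.78%) were called higher and 445 (2.46%) lower at an adjusted p under 0.05. These shares are not matched for level, since most listed transcripts had a mean of at least 5. With only the 11904 transcripts at that mean tested, limma called 614 higher and 670 lower. No other transcript of either list had a log2 change above 0.46.

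Under response to endoplasmic reticulum stress, 0 of 18 tested transcripts were called higher and 3 were called lower by limma. At an unadjusted p under 0.05 the counts were 0 higher and 6 lower, beside 12.6% higher and 13.3% lower over all tested transcripts, and limma was the only test run. Of the 18 log2 changes, 9 were above 0 and 9 below, with a median of -0.015 against 0.0034 over all tested transcripts. The 3 called lower code for residents of the ER lumen in mammals. Other entries named after ER proteins were not called. These were another HSPA5 entry (dresden_comp2648_c0_seq1, -0.056, limma adjusted p = 0.435), DNAJB11 (dresden_comp3460_c0_seq1, -0.12, limma adjusted p = 0.0904) and PDIA5 (dresden_comp821_c0_seq1, -0.089, limma adjusted p = 0.435). bip-1 (HSPA5, dresden_comp511_c0_seq1), the HSP70 of the ER, averaged 235 ± 4.41 normalised TPM in cct3A(RNAi) planarians and 285 ± 3.99 in gfp(RNAi) planarians (SD, n = 3 each), a log2 change of -0.28 (limma, adjusted p = 0.0116, lower in 3 of 3 libraries). HSP90B1 (dresden_comp758_c1_seq1), the HSP90 of the ER, averaged 168 ± 4.93 in cct3A(RNAi) planarians and 198 ± 5.71 in gfp(RNAi) planarians, with a log2 change of -0.24 (limma, adjusted p = 0.0281). DNAJC3 (dresden_comp4016_c0_seq1), a co-chaperone of BiP, averaged 27.0 ± 0.386 in cct3A(RNAi) planarians and 30.6 ± 0.791 in gfp(RNAi) planarians, with a log2 change of -0.18 (limma, adjusted p = 0.0434). comp5406 was thus higher, as selected, on a list whose called members were lower.

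Under response to topologically incorrect protein, 3 of 17 tested transcripts were called higher and 4 lower, with 7 log2 changes above 0 and 10 below and a median of -0.050. The 3 that rose are named after chaperones and co-chaperones that work in the mammalian cytosol. HSPA8 (dresden_comp320_c0_seq1), a constitutive HSP70 and 1 of the 5 transcripts that the rule leaves out, averaged 727 ± 29.7 normalised TPM in cct3A(RNAi) planarians and 529 ± 25.3 in gfp(RNAi) planarians (SD, n = 3 each), a log2 change of 0.46 (limma, adjusted p = 0.0106). HSPA4L, a relative of HSP110 (dresden_comp1087_c0_seq1, 0.19, limma adjusted p = 0.0422), and DNAJB1, a J-domain partner of HSP70 (dresden_comp3588_c0_seq1, 0.18, limma adjusted p = 0.0350), differed by less. Not called were the other HSPA8 entries of the list, dresden_comp2221_c0_seq1 (0.15, limma adjusted p = 0.0563) and dresden_comp19414_c0_seq1 (0.29, limma adjusted p = 0.196). The 4 that fell were bip-1, HSP90B1 and 2 transcripts without a symbol, dresden_comp2736_c0_seq1 (-0.21, limma adjusted p = 0.0425) and dresden_comp6732_c0_seq1 (-0.31, limma adjusted p = 0.0445).

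These calls depended on the setting. Over the 16 alternative settings the highest adjusted p of each of these 8 transcripts was between 0.0644 and 0.157, and each was called in 5 to 13 of them. When gfp(RNAi) replicate 1 or gfp(RNAi) replicate 2 was left out, 0 transcripts of either list were called in either direction. After rescaling to an equal sum, the called transcripts of the ER stress list numbered 0 higher and 6 lower, and the whole table had 103 calls higher and 1156 lower.

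**Figure D3:**
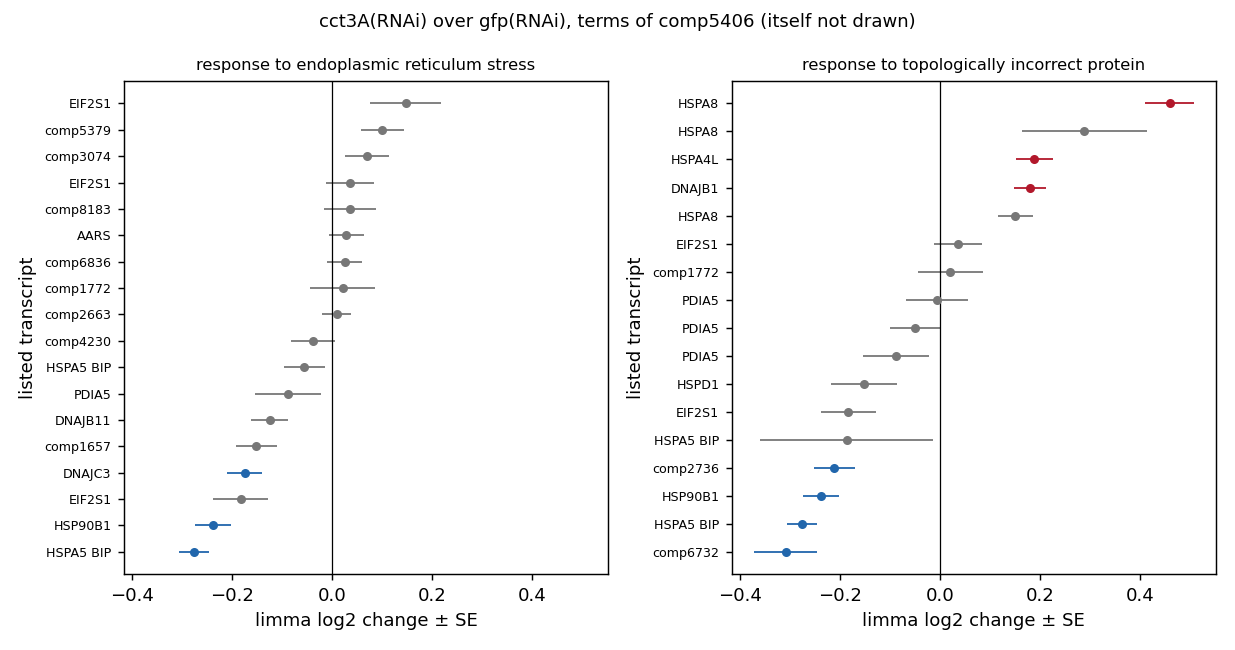
Log2 changes with their SE from limma, cct3A(RNAi) over gfp(RNAi), of the tested transcripts under the 2 GO terms that list comp5406, without comp5406 itself. Red marks calls higher, blue calls lower and grey the transcripts not called, and a symbol shown more than once stands for separate transcripts. The called transcripts of the ER stress term (left) all lie below 0, and those of the other term (right) lie on both sides, between -0.31 and 0.46.

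The files and tables used here give no name or role to the other 12 transcripts, and none is given here. Of these, comp1039 (dresden_comp1039_c0_seq1) had the cleanest separation. It was at 203, 199.5 and 203 normalised TPM in the cct3A(RNAi) libraries, against 99.4, 104 and 109 in the gfp(RNAi) libraries. The values within each group differed little, with a coefficient of variation of 1.10% in cct3A(RNAi) planarians and 4.45% in gfp(RNAi) planarians, and the lowest cct3A(RNAi) library was 1.84 times the highest control. The log2 change of comp1039 was 0.95 (SE 0.038, n = 3 each), and all 9 pairs of a cct3A(RNAi) with a gfp(RNAi) library differed by at least 0.87.

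comp2145 (dresden_comp2145_c0_seq1) had the highest level of the 13. It was at 241, 191 and 196 normalised TPM in the cct3A(RNAi) libraries and at 124, 120.1 and 140.5 in the gfp(RNAi) libraries, a log2 change of 0.71 (SE 0.13). Replicate 1 stood above the other cct3A(RNAi) libraries, and without it the log2 change was 0.59, the lowest over all settings. comp1610 (dresden_comp1610_c0_seq1) was at 38.2, 38.1 and 33.3 normalised TPM in the cct3A(RNAi) libraries and at 19.8, 22.5 and 24.9 in the gfp(RNAi) libraries, a log2 change of 0.70 (SE 0.11). Its groups were 0.41 apart on the log2 scale, measured from the lowest cct3A(RNAi) to the highest gfp(RNAi) library.

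comp14736 (dresden_comp14736_c0_seq10) was nearly level within the cct3A(RNAi) group, at 21.1, 20.6 and 21.5 normalised TPM, against 14.4, 15.4 and 11.2 in the gfp(RNAi) libraries. The spread lay in the controls, where replicate 3 was the lowest, and without that library the log2 change was 0.48 in place of 0.61 (SE 0.14). comp285 (dresden_comp285_c0_seq1) was at 92.1, 80.2 and 84.4 normalised TPM in the cct3A(RNAi) libraries and at 62.2, 54.6 and 61.2 in the gfp(RNAi) libraries, a log2 change of 0.52 (SE 0.082). Its groups were 0.36 apart, but the change lay so close to the limit that it was 0.45 after rescaling to an equal sum. comp1753 (dresden_comp1753_c0_seq1) was at 34.5, 31.8 and 27.3 normalised TPM in the cct3A(RNAi) libraries and at 21.5, 20.3 and 23.0 in the gfp(RNAi) libraries, also a log2 change of 0.52 (SE 0.11).

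Another 3 transcripts had means between 10 and 15. comp12972 (dresden_comp12972_c0_seq1) was at 17.0, 13.1 and 15.1 normalised TPM in the cct3A(RNAi) libraries and at 10.6, 8.70 and 10.3 in the gfp(RNAi) libraries, a log2 change of 0.58 (SE 0.14). comp25999 (dresden_comp25999_c0_seq1) was at 11.5, 14.3 and 10.1 normalised TPM in the cct3A(RNAi) libraries and at 8.53, 9.03 and 6.58 in the gfp(RNAi) libraries, a log2 change of 0.55 (SE 0.19). Its highest cct3A(RNAi) library was replicate 2, and without it the change was 0.40. comp10178 (dresden_comp10178_c0_seq1) was at 13.4, 11.4 and 17.4 normalised TPM in the cct3A(RNAi) libraries and at 8.84, 10.9 and 9.27 in the gfp(RNAi) libraries, a log2 change of 0.52 (SE 0.19). Replicate 3 carried much of this difference, since the change was 0.35 without it, and cct3A(RNAi) replicate 2 lay just above gfp(RNAi) replicate 2.

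The other 3 transcripts had a mean under 10. comp60231 (dresden_comp60231_c0_seq1) was at 6.69, 9.41 and 6.84 normalised TPM in the cct3A(RNAi) libraries and at 1.39, 6.42 and 4.05 in the gfp(RNAi) libraries. Its log2 change of 0.87 (SE 0.57) rested on gfp(RNAi) replicate 1, and it was 0.51 without that library and 1.34 without gfp(RNAi) replicate 2. comp8630 (dresden_comp8630_c0_seq1) was at 9.58, 6.08 and 11.8 normalised TPM in the cct3A(RNAi) libraries and at 4.94, 4.09 and 5.86 in the gfp(RNAi) libraries. Its log2 change was 0.82 (SE 0.30), and cct3A(RNAi) replicate 2 lay close to the highest control. comp454 (dresden_comp454_c0_seq1) was at 10.7, 8.36 and 9.32 normalised TPM in the cct3A(RNAi) libraries and at 4.95, 7.23 and 6.39 in the gfp(RNAi) libraries, a log2 change of 0.57 (SE 0.18). Without gfp(RNAi) replicate 1, the lowest of its controls, the change was 0.45.

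The limits cut through a continuous range of values. For the log2 change, comp10178 and comp1753 lay just inside at 0.52, whereas dresden_comp16844_c0_seq1 at 0.498 and dresden_comp1940_c0_seq1 at 0.494 lay just outside. For the mean, comp60231 at 5.80 and comp8630 at 7.06 normalised TPM were the lowest inside, and dresden_comp19769_c0_seq1 at 4.78 and dresden_comp9059_c1_seq1 at 4.38 the highest outside. Overlap excluded dresden_comp23262_c0_seq1, whose lowest cct3A(RNAi) value was 5.44 against a highest gfp(RNAi) value of 5.88, and dresden_comp1616_c0_seq1 with 25.5 against 28.7. comp8630, with 6.08 against 5.86, and comp60231, with 6.69 against 6.42, were the closest inside. The limit on the gfp(RNAi) mean was far from every member, since the highest gfp(RNAi) means were 128 for comp2145 and 104 for comp1039. Another 182 transcripts met every limit but the mean of 5.

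Of the 5 transcripts left out by name, the 3 that met the limits were dresden_comp640_c0_seq1 at 0.59, dresden_comp1332_c0_seq1 at 0.502 and dresden_comp246_c0_seq1 at 0.501 on the log2 scale. dresden_comp1459_c0_seq1 at 0.49 and HSPA8 at 0.46 were under the limit on the change. All 5 exceeded each of the 13 in the mean over the 6 libraries and in the gfp(RNAi) mean, which was 147 to 529 normalised TPM. All were higher in every cct3A(RNAi) library than in any gfp(RNAi) library.

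The 13 transcripts varied more among replicates than most transcripts did. This spread comes from the values that the rule used, and a choice of large differences between small groups can favour transcripts that vary. The median SD of their log2 values was 0.17 in cct3A(RNAi) planarians and 0.15 in gfp(RNAi) planarians, against 0.058 in cct3A(RNAi) and 0.054 in gfp(RNAi) planarians over the 11904 transcripts. The SD was larger in the cct3A(RNAi) group for 7 of the 13 (53.8%), close to the 54.4% of all 11904. Replicate 1 was the highest cct3A(RNAi) library for 7 of the 13 and replicate 2 the lowest for 8, so no single library was the highest for all of them. Over the 11904, replicate 1 was the highest for 34.7% and replicate 2 the lowest for 3950. Among the controls, replicate 3 was the highest for 6 of the 13 and replicate 1 the lowest for 6. Over the 11904, control replicate 3 was the highest for 39.3% and control replicate 1 the lowest for 4342.

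The membership of the set depended on the scaling and on single libraries. comp5406, comp1039, comp2145, comp1610 and comp8630 met the rule under every scaling, pseudocount and left-out library tried, 5 of the 13. Rescaling to an equal sum moved the median log2 change of the 11904 transcripts to -0.057. Of the 13, 8 still met the rule, and comp285, comp1753, comp25999, comp10178 and comp60231 did not. Under this scaling comp5406 was at 0.99 and comp10178 at 0.44. No member was lower in cct3A(RNAi) planarians under any of these settings, which follows from the selection. Without overlap between the groups, leaving out a library cannot reverse a change, and the selected changes were all at least 0.5. When 1 library was left out, 9 to 12 of the 13 met the rule, with the fewest without cct3A(RNAi) replicate 1, and 5 to 12 other transcripts joined them.

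**Figure D4:**
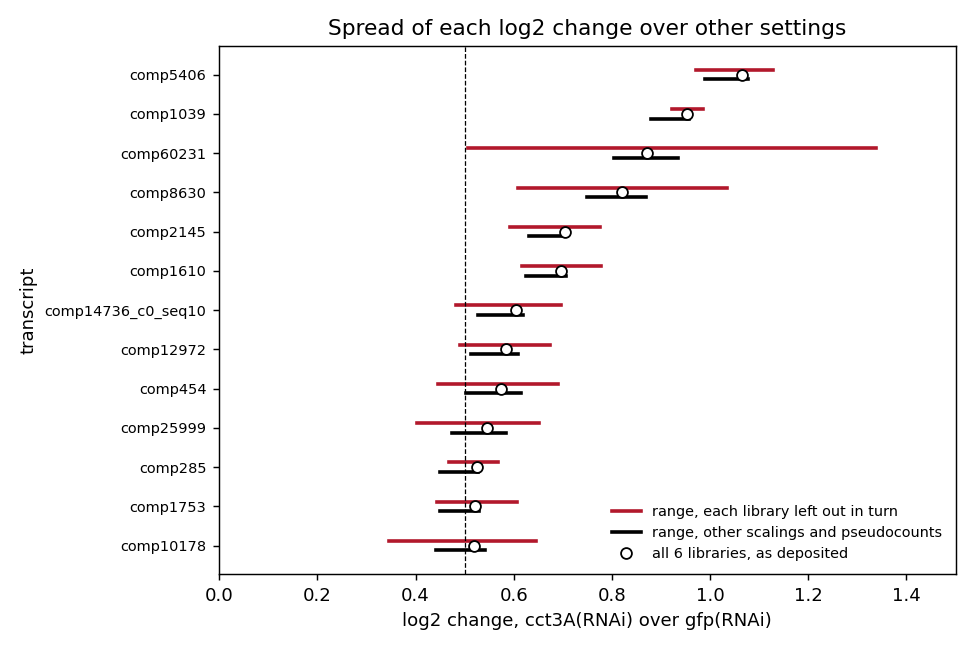
Log2 change, cct3A(RNAi) over gfp(RNAi), of each of the 13 transcripts. Open circles are the values from all 6 libraries as deposited, red lines the range when each library is left out in turn, and black lines the range over the other scalings and pseudocounts, with the limit of 0.5 dashed. The lines of comp5406, comp1039, comp8630, comp2145 and comp1610 stay right of 0.5, and the red line of comp60231 runs from 0.51 to 1.34. The red lines of the 7 transcripts below comp1610 cross the limit. The black lines cross it only for comp25999, comp285, comp1753 and comp10178.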

How the data were processed

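Transcript abundances had been estimated by the authors with kallisto (0.43.0, from the submitters' processing notes) against the Dresden transcriptome and scaled in sleuth. What was deposited is a signal, TPM divided by a size factor per library, without a filter on low values. They are not read counts, so no count model was fitted, and precision was judged from the 3 libraries of each group. The design assumed unscaled TPM, and its test was kept. Columns without an assigned library numbered 0.

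Members and lists were chosen with earlier results of these data known. Every member is given with its value in each library, with cct3A, the left-out transcripts, those next to each limit, the reference transcript for quantitative PCR and the called transcripts of the 2 GO lists. Transcripts averaging 1 or more (18062) were tested on log2(value + 0.5) with limma (version 3.58.1, R 4.3.3, eBayes with trend, two-sided) and Benjamini-Hochberg adjustment at 0.05. The procedure was also run on simulated data. Their noise was drawn independently for each library, so that run cannot speak to shared batches or to scaling. No set test was run. Identifiers and GO terms come from tables of the study. No genome or transcript sequence was used here. Alternatives were other pseudocounts, scalings, filters and variance settings, a replicate block and each library left out.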

Additional observations from a re-analysis of the deposited data

How the results depend on the processing

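The rule selected 8 transcripts after rescaling all libraries to an equal sum, 80 with a mean of at least 1, 195 without a minimum, and 14 to 24 when 1 library was left out. Settings chosen after seeing the data gave 22 without the condition on overlap, 36 at a log2 change of at least 0.4 and 7 at 0.6. limma called 103 transcripts higher and 1156 lower after this rescaling, 42 and 52 without a filter, 614 and 670 with a filter at 5, and 9 and 24 without a trend. With 1 library left out it called 9 to 128 higher and 15 to 361 lower, the fewest without gfp(RNAi) replicate 1. In the ER stress list the calls lower were 6 after rescaling, 1 without a filter, 0 without a trend and 0 to 2 with 1 library left out. In the list of topologically incorrect protein the calls higher were 1 after rescaling, 0 without a filter, 0 without a trend and 0 to 1 with 1 library left out, and the calls lower were 1 without a filter, 0 without a trend and 0 to 2 with 1 library left out. The cause of these differences was not tested.

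Libraries with the same replicate number correlated weakly in their deviations from the group means (0.048, 0.10 and 0.047). Pairs with unlike numbers were at -0.058 to 0.0082, so each library correlated best with its own number. The main fit used no replicate block, and whether the numbers mark a shared batch was not tested. With a replicate block, limma called 218 transcripts higher and 442 lower, 2 lower in the ER stress list, and 1 higher and 2 lower in the list of topologically incorrect protein. No read counts per transcript were used, so no counting error is given for low transcripts such as comp60231.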

Other observations

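The largest mean increases among transcripts with a mean of at least 5 belonged to 2 transcripts that the condition on overlap kept out, and they were chosen here after their values were seen. dresden_comp4_c1_seq1 was at 4454, 166 and 3185 normalised TPM in the cct3A(RNAi) libraries, against 108, 321 and 147 in the gfp(RNAi) libraries, a log2 change of 3.76. dresden_comp7_c0_seq1 was at 2146, 163 and 1624 normalised TPM in the cct3A(RNAi) libraries, against 165, 266 and 204 in the gfp(RNAi) libraries, a log2 change of 2.63. Both were high in cct3A(RNAi) replicates 1 and 3, and in replicate 2 they were within or just under the range of the controls. dresden_comp13514_c0_seq1 was likewise highest in cct3A(RNAi) replicates 1 and 3, at a lower level, with 38.5, 16.4 and 42.3 normalised TPM in the cct3A(RNAi) libraries and 17.1, 24.0 and 15.5 in the gfp(RNAi) libraries. The files and tables used here give none of the 3 a name. In all, 9 transcripts had a log2 change of at least 0.5 with overlapping groups.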
